A study of Mus musculus with 8 samples.

Results

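Open chromatin regions of mouse lung fibroblasts that hold sequence of the retrotransposon L1 and of no other retrotransposon are described here. A region was taken when it was shorter than 1500 bp, shared at least 1 base with an annotated L1 fragment and shared none with any other LINE, SINE, LTR or Retroposon fragment. This gave 8580 of the 185268 open regions in the deposited table, and 181314 of all open regions were under 1500 bp. The rule uses overlap and length and no counts. Members were placed in 3 classes by the names of their L1 fragments. In 857 members every name started with L1Md, in 3512 every name started with Lx, and 3851 held other L1 names only. The other names were mostly L1M (3039 members), L1Lx (370 members) and L1_Mus, L1_Mur or L1_Rod (309 members). A further 360 members mixed classes and are only counted.

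Accessibility was measured by ATAC-seq, in which a transposase cuts and tags accessible DNA. The libraries came from primary lung fibroblasts of 4 cGAS KO mice (KO F1, F2, M1 and M2) and 4 WT mice (WT F1, F2, M1 and M2), with 2 female (F) and 2 male (M) mice of each genotype as labelled. All cultures were kept at 5% CO2 and 5% O2 and 37 °C. Strain and age are not given in the labels used here. cGAS detects cytosolic DNA and triggers interferon signalling, and the series' title names derepression of LINE1 as a topic.

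L1 is the main autonomous retrotransposon of mammals. A full-length copy carries a promoter at its 5′ end and encodes the proteins that copy its RNA back into the genome, but most copies are truncated at the 5′ end and cannot move. L1Md names belong to the younger mouse lineages, some of which are still active. Lx names belong to an older rodent expansion, and L1M names to copies that were already present in early mammals.

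The median count of a member ranged from 38 to 73.5 per library, and library totals over open regions ranged from 28.0 to 55.3 M. The share of table counts given to repeats and not to open regions was 30.1%, 30.4%, 24.2% and 35.4% in KO F1, F2, M1 and M2, and 34.9%, 29.2%, 23.6% and 25.5% in WT F1, F2, M1 and M2. It includes part of each read end that lies in both an open region and a repeat. The library labelled KO F2 went against its sex label at 3 members on Y, while its level on X lay with the female libraries. At 3 members in the first part of the Y chromosome it had between 0.46 and 0.85 CPM (counts scaled to library size), while KO F1, WT F1 and WT F2 had 0 and the male libraries had 0.31 to 2.73. Per 100 autosomal member counts, members on X had 2.50, 2.50, 2.37 and 2.41 in KO F1, F2, M1 and M2. In WT F1, F2, M1 and M2 they had 2.43, 2.60, 2.39 and 2.37. Results that rest on KO F2 are given with and without it. The Cgas locus and fibroblast marker genes were not analysed here, because no annotation of the build GRCm39 was used, so no region is assigned to a gene.

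L1-only open regions had a median length of 474 bp (208 to 1484), and 7860 of them touched 1 L1 copy. L1 covered a median of 42.0% of the region's bases. The classes differed in cover, with a median of 21.9% in L1Md regions, 58.3% in Lx regions and 35.6% in regions of other names. The centre of the region lay in L1 in 24.5% of L1Md regions, 55.4% of Lx regions and 44.3% of the others. The whole region lay within L1 in 1598 members (18.6%), among them 912 Lx, 119 L1Md and 502 other regions. For comparison, the 9567 open regions that held only ERVL-MaLR, an old LTR family, had a median cover of 38.8%, and 6.11% of them lay wholly within the element.

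L1Md sequence lay mostly at the edges of the open regions that held it. At the first of 20 positions along the region, 53.2% of L1Md regions were in L1, against 24.9% just before the centre. Lx was nearly even along the region, with 60.5% at the first position and 55.4% just before the centre, and so were the other names with 48.8% and 44.6%. These are descriptions of where annotated fragments lie, without a test.

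**Figure D1:**
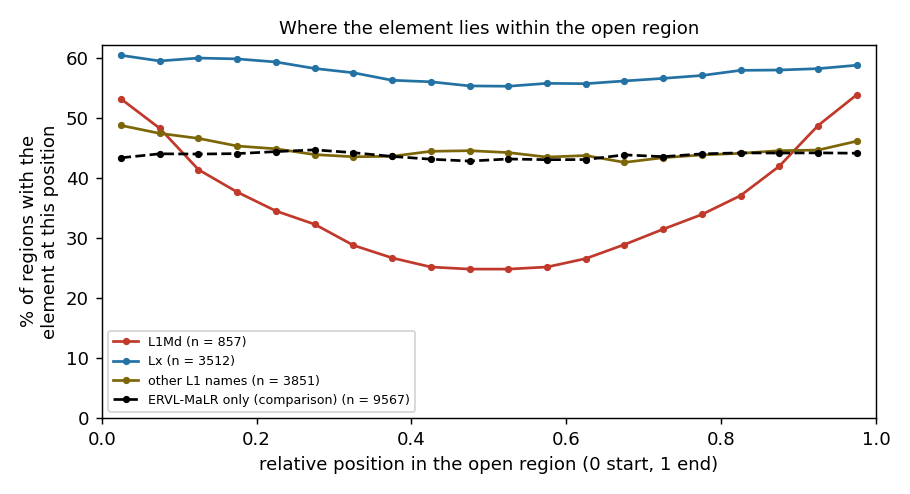
Share of open regions (y axis, %) that have the element at each of 20 relative positions along the region (x axis, 0 is the start and 1 the end), for the 3 L1 classes and, dashed, for regions holding only ERVL-MaLR. The L1Md curve dips to 24.9% near the centre, while the other curves stay nearly level.

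Few of the genome's L1 copies were touched, and of the lineages L1Md was touched least. Members touched 9217 of 616981 annotated L1 copies, or 14.9 per 1000. The rate was 6.08 per 1000 for L1Md, 11.6 for L1Lx, 16.3 for Lx and 27.1 for L1M. L1Md copies are longer than L1M copies, so the difference was wider per length, at 4.06 touched copies per Mb of L1Md, 25.2 per Mb of Lx and 70.4 per Mb of L1M. Counting copies touched by any open region of the table, with or without other retrotransposons, 1638 of 163850 L1Md copies and 6226 of 120739 L1M copies were touched, the second at 51.6 per 1000.

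Among 93 names with at least 1000 copies, the lowest rates were those of L1MdTf_I with 2.05 per 1000 (4 of 1948 copies), MusHAL1 with 2.18 and L1MdGf_II with 2.41. The highest were those of L1MB8 with 43.6 per 1000 (150 of 3438 copies) and L1MCa with 42.8. Among copies of 5 kb or more, members touched 5.93 per 1000 L1Md copies (114 of 19229), 29.7 per 1000 Lx copies and 24.8 per 1000 copies of other names. Reads from young, near-identical copies are hard to place, and how the aligner treated reads with several equal matches is not given in the sources used here. Its part in these rates was not tested, nor its part in where L1Md lay within regions or in the read-end density given below.

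**Figure D2:**
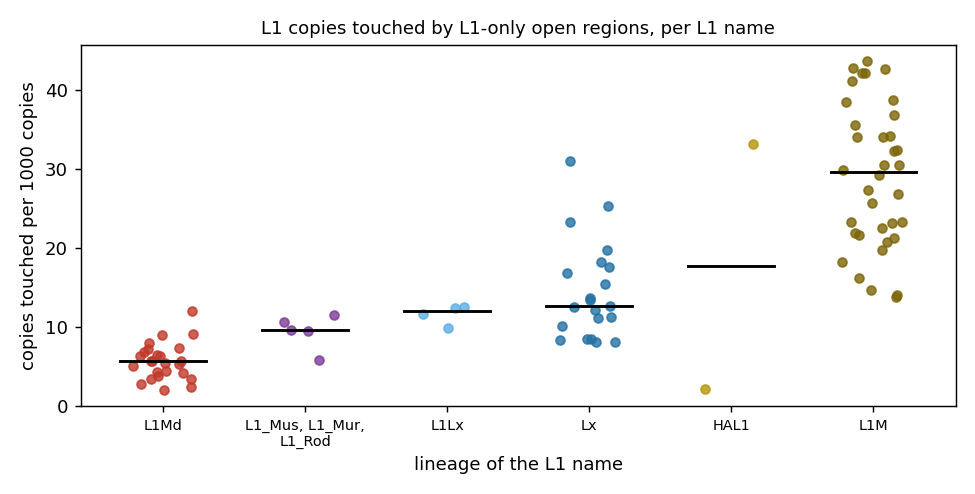
Copies touched by L1-only open regions per 1000 annotated copies (y axis), 1 point for each of 93 L1 names grouped by lineage (x axis), with a black line at the median name. The lineages overlap: L1Md names lie between 2.05 and 11.97, MusHAL1 lies at 2.18, and L1M names lie between 13.8 and 43.6, some of them below Lx4A at 31.0.

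Pooled over those regions of a class that hold their L1 wholly inside, read ends were sparser in L1Md sequence than beside it. They were nearly level across Lx, and denser in the other names. The density of read ends inside L1 was divided by the density in the rest of the regions. Read ends and bases were each summed over the regions of a class, so regions with more read ends weigh more. The 659 members used hold no other repeat, and their L1 fragments lie wholly inside. Of the 857 L1Md regions only 25 qualified, with a median of 113 bp of L1 and none on a copy of 5 kb or more. In the 659 members the counts shared between region and repeat can be put together again. For the 25 L1Md regions the mean ratio over 4 libraries was 0.433 ± 0.054 (SD) in KO cells and 0.414 ± 0.026 in WT cells. For the 198 Lx regions it was 0.976 ± 0.034 in KO and 0.920 ± 0.031 in WT, and for the 429 regions of other names 1.18 ± 0.015 in KO and 1.17 ± 0.015 in WT. The order of the 3 classes was the same in all 8 libraries.

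The genotypes overlapped in each class. For Lx the ratio was 1.02, 0.937, 0.982 and 0.966 in KO F1, F2, M1 and M2, and 0.964, 0.898, 0.90 and 0.919 in WT F1, F2, M1 and M2. The highest WT library, WT F1, lay above KO F2. The overlap for Lx rests on KO F2, since KO F1, M1 and M2 lay above every WT library, KO M2 only narrowly. The place of L1 within the region moved these values. Where L1 held the centre, the ratio averaged over 8 libraries was 1.61 for Lx, 1.58 for other names and 0.539 for the 6 such L1Md regions. Where the centre lay beside L1, the ratio was 0.61 for Lx, 0.836 for other names and 0.369 for L1Md.

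**Figure D3:**
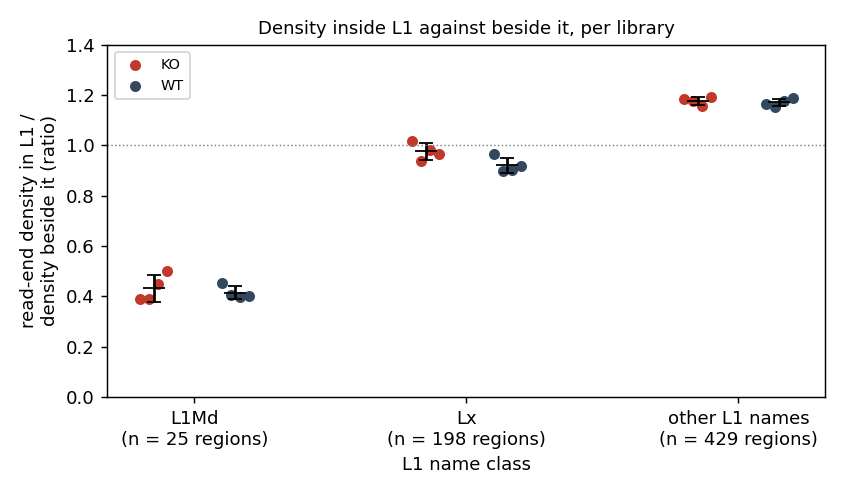
Ratio of read-end density inside L1 to the density beside it (y axis, from 0) for each class (x axis), 1 point per library in the order F1, F2, M1, M2, with KO left of WT and black bars for mean and SD over 4 libraries. Only regions that hold their L1 wholly inside and no other repeat were used. L1Md lies near 0.4 in both genotypes, Lx just under 1 and the other names near 1.2.

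In the deposited counts, the level of L1-only regions was low and fell with L1 cover. The median level was 2.79 CPM per kb of region, against 4.91 in regions with no retrotransposon and 3.10 in ERVL-MaLR regions. As deposited, L1Md regions had a median of 3.42, Lx regions 2.54 and other names 2.99 CPM per kb, in classes that differ in L1 cover. Regions with up to 10% L1 had 4.87 CPM per kb and regions wholly in L1 had 1.51. A read end that lies in both a region and an L1 fragment gives an equal fraction to each, so part of this slope comes from the counting. In the 1477 regions wholly inside 1 copy, the median was 3.02 CPM per kb once the sharing was undone, against 1.51 as deposited. In the 659 regions that hold their L1 wholly inside and no other repeat, it was 4.53, against 3.63 as deposited. Regions with no repeat of any kind had 4.67. With sharing undone, the order of the classes differed between these 2 sets. Among the 1477 regions it was 2.54 for L1Md, 3.05 for Lx and 3.13 CPM per kb for other names. Among the 659 regions it was 4.82 for L1Md (25 regions), 4.85 for Lx and 4.32 CPM per kb for other names. Just under the length limit, 14 members of 1450 to 1499 bp had a median of 9.89 CPM and a median log2 fold of -0.13, and 9 L1-only regions of 1500 to 1549 bp had 9.35 CPM and 0.021.

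KO and WT libraries overlapped in the share of open-region counts that fell in L1-only regions. The share was 2.52%, 2.54%, 2.48% and 2.47% in KO F1, F2, M1 and M2, and 2.56%, 2.47%, 2.40% and 2.49% in WT F1, F2, M1 and M2. The WT libraries held both the lowest and the highest value. The mean over 4 libraries was 2.50% ± 0.033 (SD) in KO cells and 2.48% ± 0.063 in WT cells. L1Md regions took 0.321% in KO and 0.319% in WT, Lx regions 0.914% and 0.906%, and other names 1.19% and 1.18%, in the same order of genotypes. KO minus WT was 0.023 percentage points over all members, and 0.011 without KO F2. Its sign was not stable, with -0.0035 without WT M1 and -0.025 as a share of the whole table.

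No L1-only region passed an adjusted p of 0.05 between KO and WT in edgeR's quasi-likelihood test, and none of the 185267 open regions tested did (0%). The lowest adjusted p of a member was 0.323. An unadjusted p under 0.05 was reached by 875 members, against 9.87% of all open regions. Of these 655 were higher in KO (7.63%, against 6.43% of all open regions) and 220 lower (2.56%, against 3.45%). In DESeq2, 88 members were called higher in KO (1.03%, against 1.24% of all) and 15 lower (0.175%, against 0.234%). It gave no adjusted p to 1731 of the 8580 members, against 14368 of all 185268 open regions. Regions without one count as not called in the DESeq2 shares, and they are a larger part of the members. KO and WT did not overlap in 508 members (5.92%), against 5.98% of all open regions, with 326 higher in KO (against 3.47% of all) and 182 lower (against 2.51% of all). DESeq2 called 103 members in all, or 1.20%, against 1.48%. These shares are near those of all open regions.

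The unadjusted counts moved with single libraries, and those of all open regions moved with them. Higher members numbered 347 without KO M2 (4.04%, against 3.49% of all open regions) and 426 without WT M2 (4.97%, against 4.37%). Lower members numbered 361 without KO F2 (4.21%, against 5.12%) and 135 without KO M1 (1.57%, against 2.26%). They numbered 99 without KO M2 (1.15%, against 1.71%) and 129 without WT M1 (against 2.25%). The 95% interval of the fold lay wholly between a 2-fold decrease and a 2-fold increase for 49.4% of members, and between 4-fold bounds for 93.7%, so the data leave room for differences of more than 2-fold at the others.

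By class, an unadjusted p under 0.05 was reached higher in KO by 60 L1Md regions (7.001%), 259 Lx regions (7.37%) and 311 other regions (8.08%), against 6.43% of all open regions. It was reached lower in KO by 18 L1Md regions (2.10%), 87 Lx regions (2.48%) and 109 other regions (2.83%), against 3.45% of all. The median log2 fold (KO over WT) was 0.022 over all members, 0.023 for L1Md, 0.0052 for Lx and 0.032 for other names, against 0.00038 over all open regions. With library sizes from the whole table the median of all open regions moved to -0.084 and that of members to -0.062, so the sign of these medians depends on the scaling. It also depends on the count filter, since with a mean of at least 50 counts the medians were -0.00015 for all members, -0.0058 for L1Md, -0.013 for Lx and 0.0058 for other names. Where L1 covered at least 50% of the region, the median was 0.051 for all members, 0.12 for L1Md, 0.016 for Lx and 0.073 for other names. Members wholly within L1, of all classes, had a median of 0.061. That value was 0.0013 among the 341 with a mean of at least 50 counts, and -0.017 with library sizes from the whole table.

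The regions with the lowest p show what the largest single differences looked like. A region at chr19:47519681-47520038 (GRCm39, as all coordinates here), which touches an Lx fragment by 3 bp, had 1.93, 2.52, 1.53 and 3.62 CPM in KO F1, F2, M1 and M2, and 0.959, 0.489, 0.364 and 0.50 CPM in WT F1, F2, M1 and M2. Every KO library lay above every WT library. The log2 fold was 2.08 ± 0.40 (SE), with an adjusted p of 0.323 in edgeR.

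Among L1Md regions, the one at chr3:19527930-19528933 lies on an L1MdF_V copy of 5217 bp, which covers 46.3% of it. It had 2.24, 4.14, 1.99 and 4.45 CPM in KO F1, F2, M1 and M2, and 1.26, 1.47, 1.13 and 1.27 CPM in WT F1, F2, M1 and M2. The groups did not overlap, and KO F2 and KO M2 stood above KO F1 and KO M1. The log2 fold was 1.31 ± 0.32, with an edgeR adjusted p of 0.323.

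In the other direction, a region at chr2:61974320-61975083 is covered to 81.5% by Lx4B and Lx5 fragments. It had 0.676, 1.31, 1.23 and 0.861 CPM in KO F1, F2, M1 and M2, and 1.48, 2.71, 2.75 and 3.42 CPM in WT F1, F2, M1 and M2. All KO libraries lay below all WT libraries. The log2 fold was -1.32 ± 0.32, again with an edgeR adjusted p of 0.323. A region at chr10:106833689-106834363, covered to 69.3% by the old name L1M2c, averaged 0.359 ± 0.043 CPM (SD) over 4 KO libraries and 0.855 ± 0.16 CPM over 4 WT libraries.

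The remaining L1Md regions of lowest p held only short stretches of L1. At chr13:13840526-13841139, with 28 bp of L1MdA_VII, the level was 1.63, 2.81, 1.74 and 2.87 CPM in KO F1, F2, M1 and M2, and 0.712, 1.09, 0.668 and 0.596 CPM in WT F1, F2, M1 and M2. The lowest KO library lay above the highest WT library. At chr11:90448995-90449864, with 18 bp of L1MdV_I, the level was 12.1, 10.3, 11.3 and 10.2 CPM in KO F1, F2, M1 and M2, and 14, 16.2, 15.7 and 14.7 CPM in WT F1, F2, M1 and M2. Here the libraries of each genotype lay close together, and the log2 fold was -0.46 ± 0.12 (SE), the smallest in size of the 18.

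Regions of Lx8 and of the older L1M names gave the same kind of picture. At chr13:107974590-107975154, 42.5% of which is an Lx8 fragment, the level was 4.80, 6.25, 4.24 and 8.32 CPM in KO F1, F2, M1 and M2, and 2.16, 2.89, 2.43 and 1.62 CPM in WT F1, F2, M1 and M2. KO M2 was the highest library and the groups did not overlap. At chr3:149085643-149086141, with 89 bp of L1ME4c, the level was 1.65, 2.66, 1.07 and 3.09 CPM in KO F1, F2, M1 and M2, and 0.712, 0.533, 0.445 and 0.308 CPM in WT F1, F2, M1 and M2. Its log2 fold of 2.11 ± 0.40 was the highest of the 18. At chr16:95443581-95444144, with L1M2 and L1M5 fragments, the level was 5.36, 5.86, 6.87 and 5.27 CPM in KO F1, F2, M1 and M2, and 8, 7.71, 11.98 and 14.9 CPM in WT F1, F2, M1 and M2. The KO libraries lay below the WT libraries, of which the male pair was higher than the female pair.

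Over the 18 regions with the lowest p, 3 per class and direction, all had an adjusted p of 0.323. They were picked for their low p, so it is no result that 17 did not overlap between genotypes (5.98% of all open regions do not) and that DESeq2 called 17 (1.48% of all). Most were only brushed by L1, which covered under 25% of 13 of them, so their counts come largely from sequence beside L1. In the 9 that were higher in KO, KO M2 was the highest KO library in 8 and KO M1 the lowest in 7. These 2 libraries also had the highest and the lowest share of table counts given to repeats among KO libraries, and the part of that in the differences was not tested.

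**Figure D4:**
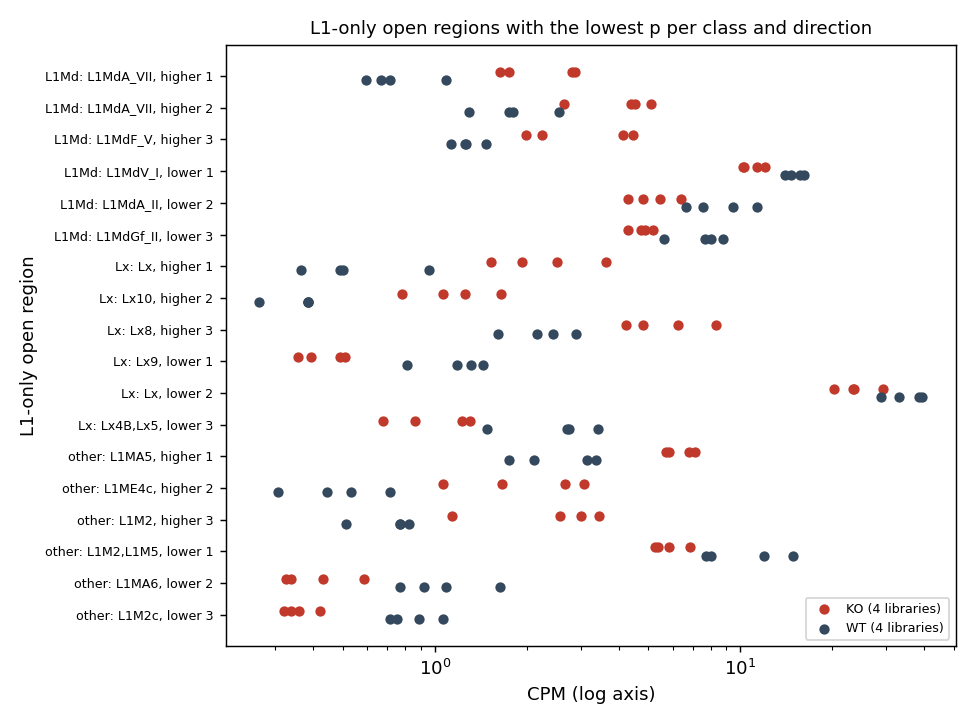
CPM (x axis, log scale) of the 18 L1-only regions with the lowest p, 3 per class and direction (rows, labelled by class and L1 name), with 4 KO libraries above 4 WT libraries in each row. The groups are apart in 17 rows, which follows from the choice by low p (5.98% of all open regions do not overlap), and no region passed the adjusted threshold.

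The 2 members of highest level in each class all overlapped between genotypes. The region at chr12:97028109-97028651, of which an Lx7 fragment covers 34.3%, had 208, 178, 163 and 294 CPM in KO F1, F2, M1 and M2, and 327, 183, 116 and 200 CPM in WT F1, F2, M1 and M2. In each genotype its highest and lowest libraries were those with the highest and lowest share of table counts given to repeats, and the part of that share was not tested. The L1Md region of highest level, at chr3:5925311-5925978 beside an L1MdA_I copy, had 77.2, 105, 71.3 and 126 CPM in KO F1, F2, M1 and M2, and 107, 107, 90.8 and 86.7 CPM in WT F1, F2, M1 and M2. Both overlapped between genotypes, with adjusted p of 0.985 and 0.984 in edgeR.

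Regions on long copies and regions of single names were then compared by their median fold, without a test. The 209 members that touched a copy of 5 kb or more had a median log2 fold of 0.14, and 132 of them (63.2%) lay above 0, against 50.1% of all open regions. In edgeR 15 of them reached an unadjusted p under 0.05 higher in KO (7.18%, against 6.43% of all) and 3 lower (1.44%, against 3.45%). Leaving out KO M2, WT F2 or WT M1 gave a median of 0.076, 0.069 or 0.077, and leaving out WT M2 gave 0.21. It was 0.061 with the whole table as library size and 0.058 among the 87 with a mean of at least 50 counts. Each library's log2 level was also set against the region's mean over libraries. The median deviation was 0.12, 0.0032, 0.042 and 0.0034 in KO F1, F2, M1 and M2. In WT F1, F2, M1 and M2 it was 0.095, -0.041, -0.17 and 0.0065. WT F1 lay above KO F2, M1 and M2, so the groups overlap.

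Among 40 names with at least 60 members, medians ran between -0.18 for Lx4A and 0.13 for L1MA4. Lx4A was singled out after its values were seen. Its 223 regions had a median L1 cover of 96.1%, the highest of the 40 names, followed by 78.8% for L1Lx_I. Of them 47.5% lay wholly in L1, close to the 45.5% of L1Lx_I and 43.5% of L1Lx_III. In 162 of them the centre lay in the fragment, and in 66.7% of these the centre was 400 to 600 bp from a fragment end, against 48.1% for Lx4B, the next name, and 26.3% for Lx8. These distances are the most common at Lx4A in these data, so its high share there is no separate result. Either end counted, so the share depends on fragment length. The fragments had a median of 842 bp for Lx4A, 808 bp for Lx4B and 529 bp for Lx8.

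Of the Lx4A regions 64 of 223 (28.7%) lay above 0, against 50.1% of all open regions. In edgeR 1 reached an unadjusted p under 0.05 higher in KO (0.448%, against 6.43% of all) and 5 lower (2.24%, against 3.45%). The 106 regions wholly in L1 had a median log2 fold of -0.26, which ran between -0.36 without KO F2 and -0.14 without WT M1. The 61 with under 50% cover had -0.042, and 0.031 without KO F1. Summed over the 223 regions, the level was 439, 497, 438 and 459 CPM in KO F1, F2, M1 and M2, and 457, 503, 517 and 465 CPM in WT F1, F2, M1 and M2. KO F2 lay above WT F1 and WT M2, so the groups overlap. The median fold was -0.095 without WT M1 and -0.27 without KO F2.

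**Figure D5:**
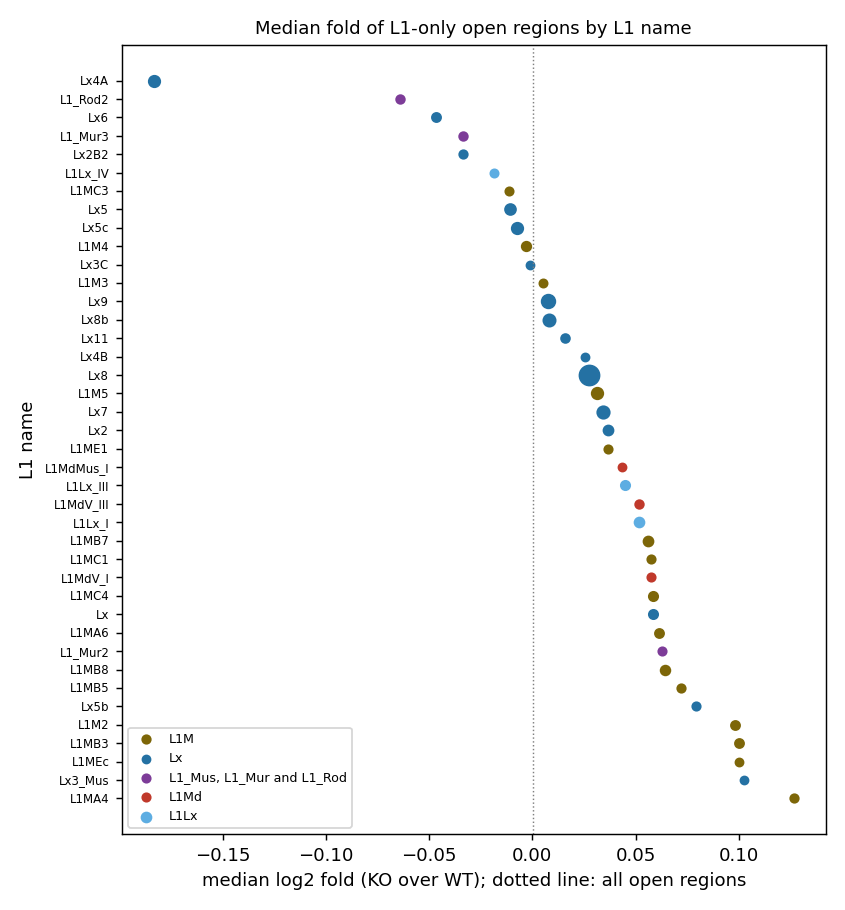
Median log2 fold, KO over WT (x axis), of L1-only regions for each of 40 L1 names (rows), coloured by lineage, with larger points for more regions and a dotted line at the median of all open regions. Lx4A stands apart at -0.18, and L1MA4 lies at the other end at 0.13.

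The X chromosome held 302 members (3.52%), against 2.31% of all open regions, and L1 is known to be dense on X. No member passed an adjusted p of 0.05 for male against female labels or for the genotype by sex interaction in edgeR. At an unadjusted p under 0.05 there were 80 members for sex, against 0.997% of all open regions, and 98 for the interaction, against 1.55%. Without KO F2 these were 254 (2.96%, against 3.30% of all open regions) and 197 (2.30%, against 2.69%), with none past the adjusted threshold.

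A pair of L1_Rod2 regions near the end of the Y chromosome differed from the 3 members at its start. At chrY:90762852-90763566 the level was 28.2, 12.4, 13.4 and 14.3 CPM in KO F1, F2, M1 and M2, and 22.2, 18.8, 14.7 and 15.6 CPM in WT F1, F2, M1 and M2. The neighbouring chrY:90847248-90847963 had 26.8, 12.7, 13.8 and 13.3 CPM in KO F1, F2, M1 and M2, and 22.1, 18.6, 14.4 and 16.9 CPM in WT F1, F2, M1 and M2. KO F1, WT F1 and WT F2 were the highest libraries at both, and KO F2 lay below every male library. Over the 302 members on X, 12 reached an unadjusted p under 0.05 for sex in edgeR once KO F2 was left out, all 12 lower in male libraries. That is 3.97% of them, against 2.13% of all members and 2.10% of all open regions lower in male libraries in the same fit. With KO F2 kept, 9 members on X reached it (2.98%), all lower in male libraries. In that fit 0.676% of all members were lower in male libraries, and 0.997% of all open regions reached it in either direction.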

How the data were processed

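The deposited table holds estimated counts of read ends per region from featureCounts 2.0.3, made by the authors over peaks and repeats together, per the file headers. Reads were counted by their 5′ ends, and one lying in both a peak and a repeat was split equally among them, per the file headers. Build GRCm39 and the tools Bowtie2, MACS2, Picard, SAMtools, bedtools and Trim Galore come from the submitters' processing notes. Peak merging and any transposase shift are not given in the sources used here. Coordinates are as in the table, whose starts may count from 0.

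Counts were rounded and tested over all open regions with edgeR 4.0.16 (R 4.3.3, robust quasi-likelihood fit, TMM, filterByExpr, sex label as covariate) and Benjamini-Hochberg adjustment, and with DESeq2 1.42.0. Overlaps used bedtools 2.31.1. CPM used TMM-scaled library sizes. The fit was tested on simulated data. P-values measure the spread between 4 mice of each genotype. Named regions are, per class, the 3 with the lowest p in each direction and the 2 of highest mean CPM. Names starting L1Lx were kept with the other names. Members, classes and lists were chosen with earlier results of these data known.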

Additional observations from a re-analysis of the deposited data

Results flagged for a closer look

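In 4 of 70 groups of 4 libraries, 1 library stood far from the other 3. Chance flags about 1 in 20 such groups. The ratio of density in L1 to that beside it for L1Md was 0.453 in WT F1, above the other WT libraries. At chr10:96376725-96377067, an Lx10 region, WT F2 had 0.267 CPM, below the other WT libraries. At chr15:7906988-7907960, an Lx9 region, KO F2 had 55.0 CPM, above the other KO libraries. At chr2:145648128-145648613, an L1M2 region, WT F2 had 0.511 CPM, below the other WT libraries.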

How the results depend on the processing

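No member passed the adjusted threshold under any other edgeR setting tried, the crossed block excepted. DESeq2 called 88 members higher in KO and 15 lower. The labels give the replicate numbers no shared litter, batch or day, and the numbers did not pair the libraries in both sexes: deviations of same-numbered libraries correlated at 0.75 for females and -0.49 for males across all open regions. With a replicate block in edgeR, 0 members were called. Of the 8580 members, 771 higher and 307 lower had an unadjusted p under 0.05, against 23009 of all 185268 open regions in either direction. Crossing the male numbers, chosen after seeing the data, called 434 of the 8580 members higher and 82 lower. Over all open regions it called 11510 of 185268 in either direction.

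With the whole table as library size, medians of log2 fold were -0.062 for all members, -0.068 for L1Md, -0.079 for Lx, -0.050 for other names and -0.037 for mixed regions, against -0.084 over all open regions. Where L1 covered at least 50% of the region, they were 0.051 for all, 0.12 for L1Md, 0.016 for Lx, 0.073 for other names and 0.046 for mixed regions. Leaving out each library gave medians of 0.0053 to 0.046 for all members, 0.00066 to 0.039 for L1Md, -0.0096 to 0.031 for Lx, 0.012 to 0.055 for other names and 0.015 to 0.073 for mixed regions.

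The density ratio, averaged over libraries, was 1.13 for all, 1.02 for Lx and 1.23 for other names with at least 100 bp in and beside L1. With L1 at the centre, an alternative chosen after seeing the data, it was 1.51 for all, 0.539 for L1Md, 1.61 for Lx and 1.58 for other names. Leaving out each library gave 1.05 to 1.06 for all, 0.412 to 0.428 for L1Md, 0.938 to 0.955 for Lx and 1.17 to 1.18 for other names. The cause of these shifts was not tested.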

Other observations

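Other names at either end of the order by median fold were L1_Rod2 with -0.064 over 86 regions and Lx3_Mus with 0.10 over 60 regions. At L1MA4, whose 79 regions had the highest median, the summed level was 227 ± 4.97 CPM in KO and 218 ± 7.25 CPM in WT (SD, n = 4 each), and the median log2 fold was 0.082 without KO F1 or without WT F2, 0.20 without WT M2, 0.044 with the whole table as library size and 0.015 among the 40 regions with a mean of at least 50 counts.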
